A study of Mus musculus with 6 samples.

Results

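The brain endothelial and mural cell genes are 33 genes that mark the wall of brain vessels, of 53801 genes in the deposited table of adult brains. They were taken from the table by gene symbol, 24 of them as genes of endothelial cells and 9 as genes of mural cells, and all 33 passed the filter on low counts. RNA-seq was performed on a brain hemisphere from each of 3 Bahd1-WT mice (Bahd1+/+) and 3 Bahd1-KO mice (Bahd1-/-), all C57BL/6 and about 70 weeks old by their labels, with no other allele or agent named. The KO mice lack Bahd1 in every cell, and the study states that the null mutation causes deaths around birth, so the adult KO mice are survivors. BAHD1 is a chromatin factor that takes part in the formation of repressive heterochromatin.

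Endothelial cells line the lumen of the vessel and, in the brain, form the blood-brain barrier. They are joined by tight junctions and carry transporters that move glucose, lipids and drugs into or out of the tissue. Mural cells wrap around this lining, as pericytes on capillaries and as contractile smooth muscle cells on arterioles. Signals such as VEGF, angiopoietin, TGF-beta and PDGF pass between these cells and hold the wall together, and SOX17, SOX18 and ERG are transcription factors of endothelial cells.

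The 33 genes differed among themselves in sign and size. At an adjusted p under 0.1, 11 members were higher in the Bahd1-KO brains, beside 14.7% of all genes tested. These were Sox18, Cldn5, Eng, Tie1, Egfl7, Vwf, Vtn, Slc2a1, Acta2, Mfsd2a and Esam, by a fitted 1.61-fold (Esam) to 6.88-fold (Sox18). Without Bahd1-KO replicate 2, the library with the highest level of all 11 genes, the log2 fold change of Sox18 moved from 2.78 to 1.76, that of Cldn5 from 2.56 to 1.45 and that of Eng from 1.74 to 1.10. With the GC and length offset described below, only Sox18 and Acta2 of the 11 still passed. When any WT library or Bahd1-KO replicate 3 was left out, 0 members passed, and at most 5 genes of the whole table did. The receptors Flt1, Kdr and Tek of endothelial cells had log2 fold changes between -0.05 and 0.15. Rgs5, Slco1a4, Cd34, Abcc9, Abcb1a, Emcn and Ocln had negative values, none of which passed the test. Throughout, a log2 fold change is Bahd1-KO minus Bahd1-WT from edgeR's quasi-likelihood test over all 23975 genes tested, with its standard error (SE) and its Benjamini-Hochberg adjusted p.

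The genes with the largest values were rich in G and C. The first 150 coding bases are shown for Cldn5 (GRCm38, chr16:18776847-18778262, plus strand), which had a log2 fold change of 2.56, and for Slco1a4 (chr6:141805440-141856199, minus strand), the only member for which every KO library lay below every WT library. They are printed from the start codon with G and C in capitals, as read from the GENCODE transcripts.
Cldn5: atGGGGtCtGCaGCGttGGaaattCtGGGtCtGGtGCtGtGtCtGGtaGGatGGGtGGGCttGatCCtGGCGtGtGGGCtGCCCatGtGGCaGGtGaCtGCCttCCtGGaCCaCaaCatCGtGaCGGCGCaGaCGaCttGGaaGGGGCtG
Slco1a4: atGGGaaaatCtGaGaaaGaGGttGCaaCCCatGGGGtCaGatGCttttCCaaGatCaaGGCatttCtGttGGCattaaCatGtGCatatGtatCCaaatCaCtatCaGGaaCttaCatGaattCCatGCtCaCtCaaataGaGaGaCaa
G and C made up 64.1% of the whole coding sequence of Cldn5 and 42.4% of that of Slco1a4. Over the longest annotated transcript, the measure used below, the GC content was 60.5% for Cldn5 and 40.3% for Slco1a4.

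The deposited counts summed to between 42297150 and 93557948 reads per library, and 3 counts, the floor used here, were worth 0.0315 to 0.0690 CPM (counts scaled to the normalized library size), below every member in every library. Bahd1 had 1383, 844 and 1099 counts in the WT libraries and 0, 14 and 1 in the KO libraries. The labelled tissue carried its defining transcripts, and the counts of marker genes that follow are at an adjusted p under 0.1, where 14.7% of all genes tested were higher and 4.77% lower. Neuron markers summed to 9425 to 10500 CPM in the WT and 7839 to 9712 CPM in the KO libraries (1 of 9 genes higher, 0 lower), and astrocyte markers to 6377 to 6950 against 5492 to 6536 CPM (2 of 9 higher, 0 lower). Oligodendrocyte markers summed to 5225 to 6026 against 5458 to 8435 CPM (4 of 8 higher, Mbp, Mag, Cnp and Sox10), and microglia markers to 338 to 395 against 356 to 377 CPM (4 of 9 higher, Tmem119, C1qa, C1qb and Trem2). Lung epithelium markers (9 genes) summed to 118, 27.0 and 2.67 CPM in Bahd1-WT replicates 1, 2 and 3. In the KO libraries they summed to 0.644 to 1.97 CPM. Of these genes, 7 were lower in the KO brains at an adjusted p under 0.1, and Sftpd had 0 counts in all KO libraries. Lung endothelial markers (7 genes) summed to 237.6, 194.5 and 196.5 CPM in the WT and 165.5 to 189.1 CPM in the KO libraries. Bahd1-WT replicate 1, with the highest lung sums, also had the highest WT median over the endothelial members (0.23, given below). Red blood cell markers (6 genes) summed to 11.4 to 16.3 CPM in the WT and 15.3 to 93.1 CPM in the KO libraries, and the 4 globin genes among them, whose near-identical copies may share reads, were higher in the KO brains. Choroid plexus markers (7 genes) summed to 289 to 387 CPM in the WT and 471 to 1093 CPM in the KO libraries, which was the level of Ttr, since the other 6 genes summed to 75.5 to 86.8 CPM in the WT and 68.9 to 74.2 CPM in the KO libraries. Both replicates numbered 2 also stood apart from the rest. Bahd1-KO replicate 2 had the highest level of all 6 libraries for 20 of the 33 members, including all 11 that were higher at an adjusted p under 0.1, and the lowest for 8, and Bahd1-WT replicate 2 had the lowest for 19. Bahd1-KO replicate 2 also had the highest red blood cell sum. The part of these cell types, of lung, blood or choroid plexus, or of these libraries in the results below was not tested, other than by the values without a library.

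The study's rule for a changed gene was an adjusted p under 0.05 with at least a 2-fold change, tested with DESeq2. With these thresholds the edgeR test used here called no member and 0.00834% of all genes tested. DESeq2 called 8 members higher under the same rule (Cldn5, Slc2a1, Tie1, Eng, Vwf, Egfl7, Sox18 and Vtn), both with its normal prior, where it called 9.61% of all genes higher, and without it, where it called 10.5%. At an adjusted p under 0.1 in edgeR, 11 members were higher, beside 14.7% of all genes tested, and 0 were lower, beside 4.77%. At an unadjusted p under 0.05 there were 15 members, beside 31.8% of all genes. Every KO library lay above every WT library for 15 members (20.6% of all genes) and below for 1 member, Slco1a4 (19.3% of all genes). The median log2 fold change was 0.45 over the 24 endothelial genes and 0.57 over the 9 mural genes, against -0.06 over all genes tested. Without Bahd1-KO replicate 2 the endothelial median was 0.26, and without Bahd1-WT replicate 2 it was 0.29. In each library, the median over the endothelial genes of log2 CPM minus the WT mean was 0.23, -0.20 and 0.04 in the WT and 0.20, 0.84 and 0.30 in the KO libraries, so the genotypes overlapped. Over the mural genes it was 0.07, -0.15 and 0.02 against 0.35, 0.84 and 0.44, without overlap. In bulk tissue, a different number of vessel cells and a different amount of RNA per cell cannot be told apart.

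**Figure D1:**
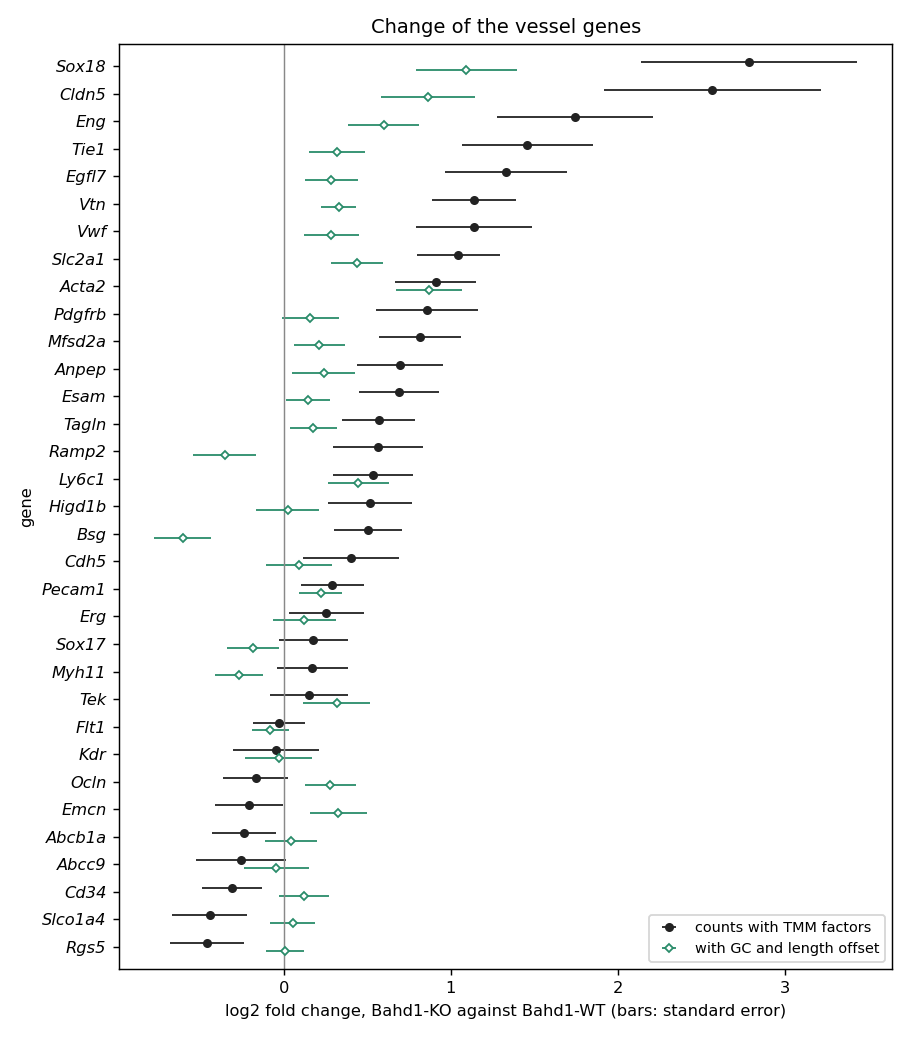
Log2 fold change (Bahd1-KO minus Bahd1-WT, edgeR) of the 33 vessel genes, with bars of 1 SE, sorted by size (black), and the value with a GC and length offset under it (open diamonds). Values ran from -0.46 (Rgs5) to 2.78 (Sox18) without the offset, and 28 of 33 were under 0.5 in size with it.

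Among the junction and surface genes, Cldn5 (claudin-5, the main tight junction protein of brain endothelium) had the largest difference. It was measured at 3.22, 1.26 and 2.85 CPM in Bahd1-WT replicates 1, 2 and 3 and at 5.52, 30.0 and 7.84 CPM in Bahd1-KO replicates 1, 2 and 3. The groups did not overlap, but the KO libraries varied widely, with a mean of 14.5 ± 13.5 CPM against 2.45 ± 1.04 CPM (SD, n = 3 each) and a log2 fold change of 2.56 (SE 0.65, edgeR adjusted p = 0.0634). Esam, an adhesion molecule of endothelial junctions, had 7.86, 5.93 and 6.53 CPM in the WT and 9.03, 14.1 and 9.60 CPM in the KO libraries, a log2 fold change of 0.69 (SE 0.24, edgeR adjusted p = 0.0988).

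The other junction and surface genes overlapped between genotypes. Ocln (occludin, the partner of claudin-5 in the tight junction) had 18.0, 15.9 and 18.0 CPM in the WT and 16.0, 12.5 and 17.8 CPM in the KO libraries, a log2 fold change of -0.17 (SE 0.20). Cdh5 (VE-cadherin of the adherens junction) had 13.9, 7.84 and 11.1 against 9.998, 18.1 and 15.3 CPM, a log2 fold change of 0.40 (SE 0.29). Pecam1 (CD31, a general endothelial adhesion molecule) had 30.7, 22.7 and 25.8 against 28.1, 36.8 and 32.1 CPM, a log2 fold change of 0.29 (SE 0.19). The difference between Cldn5 and the other junction genes was not tested, and with the GC and length offset described below Ocln was at 0.28, the same sign as Cldn5. Emcn (endomucin, a mucin of the luminal surface) had 10.2, 15.1 and 12.9 against 11.3, 10.2 and 11.7 CPM, and Cd34 (a sialomucin of vessel surfaces) 51.4, 58.8 and 72.9 against 55.0, 46.4 and 46.7 CPM. Their log2 fold changes were -0.21 (SE 0.21) and -0.31 (SE 0.18). Ly6c1, a surface protein of brain endothelium with a close paralog that may share its reads, had 21.9, 16.4 and 17.9 against 23.9, 36.3 and 21.3 CPM, a log2 fold change of 0.54 (SE 0.24). The edgeR adjusted p of these 6 genes lay between 0.162 (Ly6c1) and 0.571 (Ocln).

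Of the 5 transport genes, Slc2a1 and Mfsd2a were higher in the KO brains at an adjusted p under 0.1, beside 14.7% of all genes tested. Slc2a1 (GLUT1, the glucose transporter of the barrier) had 78.7, 72.7 and 52.2 CPM in the WT and 102, 185 and 133 CPM in the KO libraries. All KO libraries lay above all WT libraries, with a log2 fold change of 1.05 (SE 0.25, edgeR adjusted p = 0.0634). Mfsd2a, which carries lipids with docosahexaenoic acid into the brain, had 18.4, 10.4 and 13.4 against 22.1, 29.4 and 22.8 CPM, a log2 fold change of 0.82 (SE 0.24, edgeR adjusted p = 0.0738). Bsg (basigin, a membrane glycoprotein that neurons and glia also make) had 253, 272 and 268 against 327, 496 and 302 CPM. Its groups did not overlap, but its log2 fold change of 0.51 (SE 0.20) did not pass (edgeR adjusted p = 0.133) and was 0.25 without Bahd1-KO replicate 2. Slco1a4, an organic anion transporter, had 56.2, 55.9 and 67.0 against 49.2, 30.4 and 52.2 CPM, and was the only member for which every KO library lay below every WT library (log2 fold change -0.44, SE 0.22, edgeR adjusted p = 0.200, and -0.24 without Bahd1-KO replicate 2). Abcb1a (P-glycoprotein, which pumps drugs out) had 49.2, 42.9 and 47.8 against 35.1, 33.7 and 49.9 CPM, a log2 fold change of -0.24 (SE 0.19). With the offset, Slco1a4 and Abcb1a were at 0.0545 and 0.043, Slc2a1 at 0.44 and Mfsd2a at 0.21, none of which passed. Bsg turned to -0.60 with it (edgeR adjusted p = 0.0965).

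**Figure D2:**
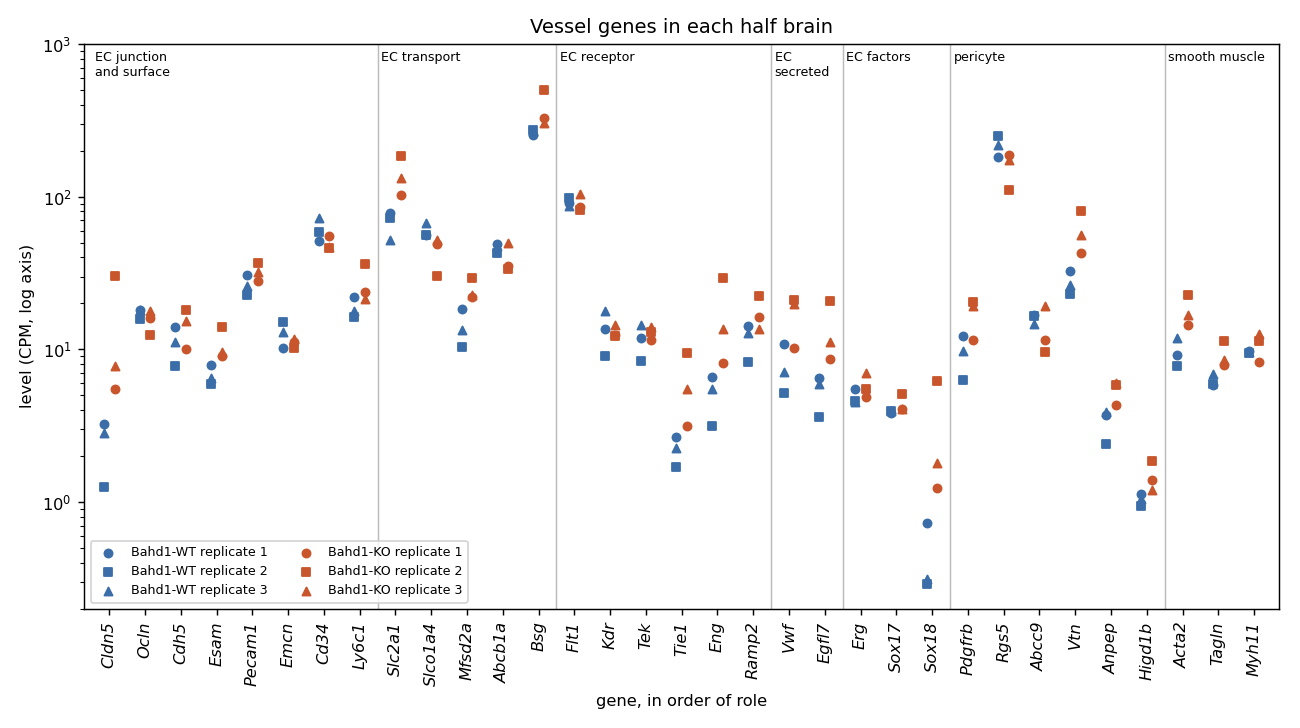
Level of each of the 33 genes in each of the 6 libraries, in CPM on a log axis, with 3 Bahd1-WT and 3 Bahd1-KO points per gene and genes grouped by role. The KO points of Cldn5 spread from 5.52 to 30.0 CPM, while the points of Flt1 stayed between 82.1 and 104 CPM in both genotypes.

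Among the receptors, Flt1, Kdr and Tek, the receptors for VEGF and for angiopoietins, had overlapping groups and edgeR adjusted p-values of 0.915, 0.917 and 0.669. Flt1 had 91.3, 98.2 and 86.7 CPM in the WT and 85.1, 82.1 and 104 CPM in the KO libraries (log2 fold change -0.03, SE 0.16). Kdr had 13.5, 9.12 and 17.8 against 12.5, 12.3 and 14.4 CPM (log2 fold change -0.05, SE 0.25), and Tek 11.9, 8.42 and 14.5 against 11.6, 13.0 and 14.1 CPM (log2 fold change 0.15, SE 0.23). Tie1 (an orphan receptor that forms a complex with Tek) had 2.69, 1.70 and 2.26 against 3.17, 9.52 and 5.54 CPM, a log2 fold change of 1.46 (SE 0.39, edgeR adjusted p = 0.0647). Eng (endoglin, a co-receptor for TGF-beta and BMP ligands) had 6.61, 3.16 and 5.52 against 8.16, 29.4 and 13.6 CPM, a log2 fold change of 1.74 (SE 0.47, edgeR adjusted p = 0.0647). Both had every KO library above every WT library. With the offset, Tie1 and Tek were both at 0.32, Eng at 0.60, Flt1 at -0.08, Kdr at -0.03 and Ramp2 at -0.35, and none of them passed. No difference between receptors was tested. Ramp2, the partner of the adrenomedullin receptor, had 14.2, 8.31 and 12.9 against 16.2, 22.5 and 13.7 CPM and did not pass (log2 fold change 0.57, SE 0.27, edgeR adjusted p = 0.182).

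Both secreted endothelial genes were higher. Vwf (von Willebrand factor, which captures platelets) had 10.9, 5.21 and 7.09 CPM in the WT and 10.2, 21 and 19.8 CPM in the KO libraries. Bahd1-KO replicate 1 lay within the WT range, and the log2 fold change was 1.14 (SE 0.35, edgeR adjusted p = 0.0765). Egfl7, a matrix protein that endothelial cells release, had 6.52, 3.61 and 5.97 against 8.64, 20.7 and 11.1 CPM, without overlap (log2 fold change 1.33, SE 0.36, edgeR adjusted p = 0.0650).

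Of the 3 transcription factors, Sox18 alone passed. Sox18 had 0.732, 0.291 and 0.314 CPM in the WT and 1.24, 6.22 and 1.81 CPM in the KO libraries, the lowest levels among the members per kilobase of exon in WT brains (mean 0.275 CPM per kilobase) and the largest log2 fold change (2.78, SE 0.65, edgeR adjusted p = 0.0634). Its close relative Sox17 had 3.81, 3.94 and 3.97 against 4.09, 5.10 and 4.04 CPM. The groups of Sox17 did not overlap either, but the difference was small, with a log2 fold change of 0.18 (SE 0.21, edgeR adjusted p = 0.566). Erg, an ETS factor of endothelial cells, had 5.51, 4.57 and 4.53 against 4.90, 5.50 and 7.03 CPM (log2 fold change 0.26, SE 0.22, edgeR adjusted p = 0.441).

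Among the pericyte genes, Vtn alone was higher at an adjusted p under 0.1. Vtn (vitronectin, a secreted matrix protein of pericytes) had 32.5, 23.0 and 26.2 CPM in the WT and 42.9, 80.7 and 56.3 CPM in the KO libraries, without overlap (log2 fold change 1.14, SE 0.25, edgeR adjusted p = 0.0634). Pdgfrb (the PDGF receptor that recruits pericytes) had 12.3, 6.35 and 9.74 against 11.6, 20.6 and 19.2 CPM, with Bahd1-KO replicate 1 inside the WT range (log2 fold change 0.86, SE 0.30, edgeR adjusted p = 0.103). Rgs5 (a regulator of G protein signalling, the most abundant pericyte member per kilobase) had 183, 250 and 218 against 189, 111 and 174 CPM, a log2 fold change of -0.46 (SE 0.22, edgeR adjusted p = 0.188), which was -0.26 without Bahd1-KO replicate 2. Abcc9 (a subunit of the potassium channel of pericytes) had 16.7, 16.6 and 14.6 against 11.5, 9.55 and 19.2 CPM (log2 fold change -0.25, SE 0.27). The highest Pdgfrb and the lowest Rgs5 level, both of defining pericyte genes, were thus in the same library, Bahd1-KO replicate 2. Anpep (an aminopeptidase, CD13) had 3.73, 2.41 and 3.87 against 4.34, 5.83 and 6.05 CPM, and Higd1b (a mitochondrial protein) 1.14, 0.939 and 1.05 against 1.402, 1.85 and 1.21 CPM. Both had non-overlapping groups, with log2 fold changes of 0.70 (SE 0.26) and 0.52 (SE 0.25) and edgeR adjusted p-values of 0.113 and 0.190.

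Of the smooth muscle genes, Acta2 was higher. Acta2 (smooth muscle actin) had 9.16, 7.74 and 11.8 CPM in the WT and 14.5, 22.6 and 16.8 CPM in the KO libraries, without overlap (log2 fold change 0.91, SE 0.24, edgeR adjusted p = 0.0647). Tagln (transgelin, an actin-binding protein) had 5.81, 5.96 and 6.94 against 7.91, 11.4 and 8.46 CPM and, without overlap either, missed the threshold (log2 fold change 0.57, SE 0.22, edgeR adjusted p = 0.120). Myh11 (the myosin heavy chain of smooth muscle) had 9.70, 9.47 and 9.54 against 8.25, 11.4 and 12.7 CPM, a log2 fold change of 0.17 (SE 0.21). Differences among these 3 contractile genes were not tested.

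Ratios of members within a library show how the members stood to each other in each brain. The pairs were chosen after their values were seen, most of them as a member that was higher over a partner that was not, so their direction follows from the choice and no test is given. The ratio of Cldn5 to Pecam1 (in CPM) was 0.105, 0.0556 and 0.110 in the WT and 0.196, 0.817 and 0.245 in the KO libraries. That of Slc2a1 to Slco1a4 was 1.4, 1.30 and 0.780 against 2.08, 6.08 and 2.55, and that of Vtn to Rgs5 0.177, 0.0921 and 0.120 against 0.227, 0.724 and 0.324. For these 3 pairs, and for Sox18 to Sox17, Tie1 to Tek, Eng to Kdr and Acta2 to Myh11, every KO library lay above every WT library. In each of these pairs except Acta2 and Myh11, the first gene had the higher GC content. Of the pairs in which neither gene passed the test, the ratio of Pecam1 to Flt1 overlapped, with 0.337, 0.231 and 0.298 in the WT and 0.330, 0.448 and 0.310 in the KO libraries. That of Pdgfrb to Pecam1 did not, with 0.399, 0.280 and 0.377 in the WT and 0.412, 0.559 and 0.599 in the KO libraries. Here too the first gene had the higher GC content (54.9% against 50.2%). With the GC and length offset described below, Pdgfrb was at a log2 fold change of 0.16 and Pecam1 at 0.22.

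**Figure D3:**
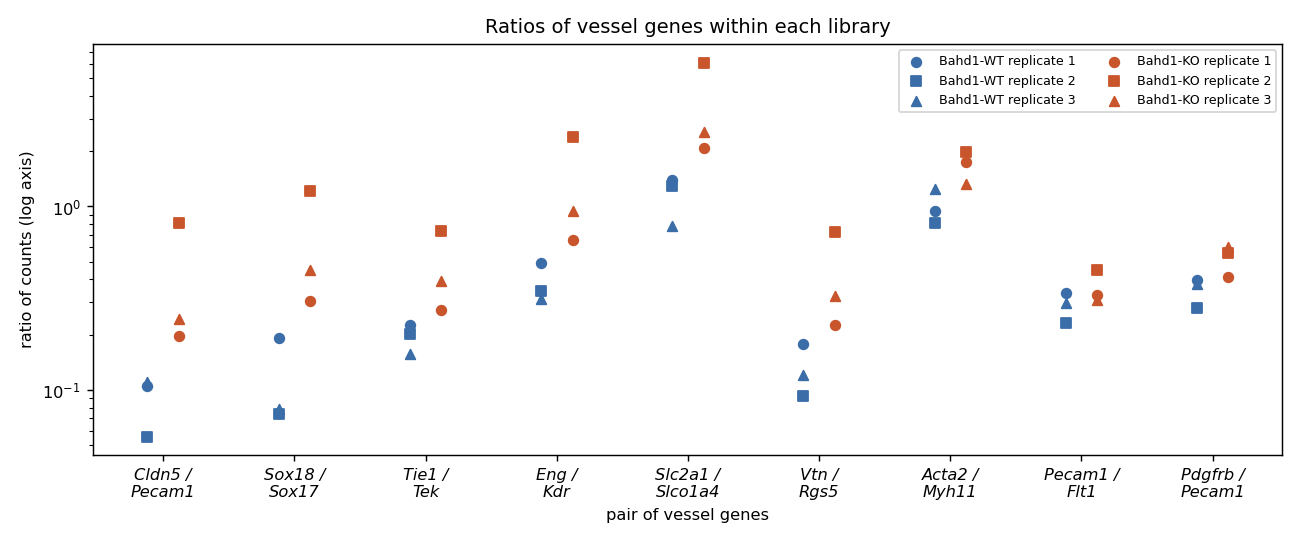
Ratio of the CPM of pairs of vessel genes within each library, on a log axis, for 9 pairs in the 3 Bahd1-WT (blue) and 3 Bahd1-KO (red) libraries. The Cldn5 to Pecam1 ratio was highest in Bahd1-KO replicate 2 (0.817), and the Pecam1 to Flt1 ratio overlapped between genotypes.

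Per kilobase of exon, Bsg was the most abundant member (mean 145.7 CPM per kilobase in WT brains), followed by Rgs5 (47.8), Slc2a1 (19.4) and Vtn (13.4). Bsg did not overlap with Rgs5, nor Rgs5 with Slc2a1, in WT brains, but from Slc2a1 down to Kdr each gene overlapped with the next in the order. Cldn5 was at rank 21 of 33 in WT brains (1.73 CPM per kilobase) and at rank 7 in KO brains (10.2 CPM per kilobase, with a range of 3.90 to 21.2 over the 3 libraries). Slco1a4, in turn, was at rank 6 in WT and rank 10 in KO brains.

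The values of the members followed the GC content of their transcripts. The 11 members with the lowest GC content (40.3% to 49.6%) had a median log2 fold change of -0.21, with 8 negative values, and 1 of them, Acta2, was higher at an adjusted p under 0.1. The 11 in the middle (50.2% to 54.0%) had a median of 0.40, with 2 of them higher. The 11 with the highest GC content (54.2% to 60.9%) had a median of 1.14, no negative value, and 8 of them were higher. The same pattern was present over all genes tested. Genes within these 3 ranges had medians of -0.32, 0.26 and 0.94, and 1.06%, 12.5% and 50.2% of them were higher at an adjusted p under 0.1. Spearman's rho between GC content and log2 fold change was 0.87 over the 33 members and 0.74 over all genes, as a description across genes that share the same 6 libraries. Over the coding sequence alone the rho was 0.80 for the members, and for the GC content of the promoter window it was 0.32 over the 21 members with an entry.

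**Figure D4:**
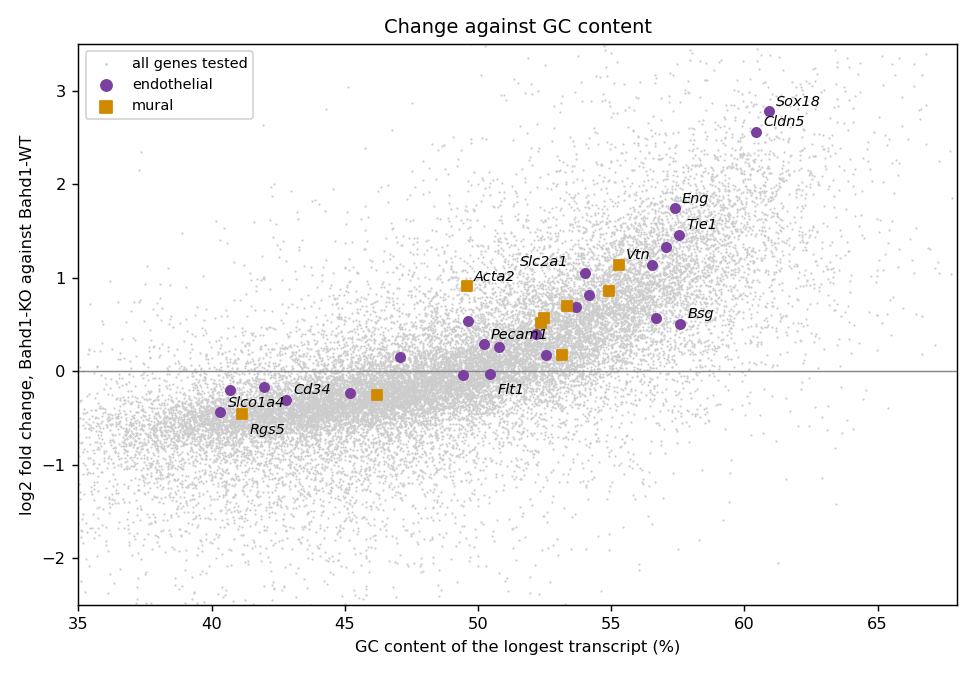
Log2 fold change (Bahd1-KO minus Bahd1-WT, edgeR) against GC content of the longest transcript, with the 24 endothelial (circles) and 9 mural genes (squares) over the genes tested (grey, some of which lie outside the axes). The members lie along the grey band from Slco1a4 (-0.44) at the left to Sox18 (2.78) at the right, with Acta2 (0.91) above the band.

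When each library's own trend of level on GC content and gene length over all genes was entered in the fit as an offset, the median of the endothelial genes was 0.22 and that of the mural genes 0.16, against -0.06 over all genes. Of the members, 10 turned sign and 28 were under 0.5 in size, with a rho of 0.24. At an adjusted p under 0.1 there were 3 members, of which Sox18 and Acta2 had also passed without the offset and Bsg had not, beside 5.95% of all genes tested in this way. Acta2 kept its size, with a log2 fold change of 0.87 (edgeR adjusted p = 0.0812), and had 9.43, 8.0 and 11.7 offset-corrected CPM in the WT and 13.4, 21.7 and 18.0 in the KO libraries. Sox18 was at 1.09 (edgeR adjusted p = 0.0955), and Bsg turned to -0.60 (edgeR adjusted p = 0.0965). Cldn5 was at 0.86, Eng at 0.60, Slc2a1 at 0.44, Vtn at 0.33, Tie1 at 0.32, Vwf and Egfl7 at 0.29, Mfsd2a at 0.21 and Esam at 0.15, none of which passed.

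Promoters were examined for the sequence of the GC box, GGGCGG, on either strand, in the 250 bases before the RefSeq start. Cldn5 and Slco1a4, whose coding bases are given above, are shown with GC boxes in capitals (RefSeq, GRCm38.p6).
Cldn5, chr16:18776597-18776846, plus strand: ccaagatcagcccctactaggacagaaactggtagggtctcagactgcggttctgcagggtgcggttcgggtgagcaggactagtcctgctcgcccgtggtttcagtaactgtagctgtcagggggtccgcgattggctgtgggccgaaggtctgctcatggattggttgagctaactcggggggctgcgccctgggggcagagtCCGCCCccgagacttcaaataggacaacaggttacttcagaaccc
Slco1a4, chr6:141856221-141856470, minus strand: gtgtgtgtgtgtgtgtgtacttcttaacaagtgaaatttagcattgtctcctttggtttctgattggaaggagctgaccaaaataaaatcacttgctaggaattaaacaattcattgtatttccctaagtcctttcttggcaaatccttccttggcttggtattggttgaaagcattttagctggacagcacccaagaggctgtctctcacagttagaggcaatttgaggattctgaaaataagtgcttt
The window of Cldn5 was 59.6% G and C and held 1 GC box, and that of Slco1a4 was 39.2% and held 0. Over the members, 10 of 27 windows (37.0%, from 21 genes) held a GC box, against 32.7% of 32851 windows of all genes.

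In the pathways around the members, 138 further genes were listed and 136 passed the filter, of which 40 were higher and 4 lower in the KO brains at an adjusted p under 0.1, beside 14.7% higher and 4.77% lower of all genes tested, with a median log2 fold change of 0.26. With the offset, that median was -0.02. Of the VEGF and angiopoietin ligands and partners, 3 of 10 were higher (Vegfa, Vegfb and Flt4), as were 5 of 13 genes of TGF-beta, PDGF and adrenomedullin signalling, while Calcrl, the receptor that Ramp2 serves, was lower. Of the genes of Wnt and Norrin signalling, which maintains the barrier, 3 of 13 were higher, and 2 of 10 of Notch signalling. Junction partners (2 of 12), other barrier transporters (4 of 14), basement membrane genes (4 of 10) and other smooth muscle genes (6 of 15) held only higher genes among those that passed. Other endothelial transcription factors (1 higher and 1 lower of 13), other endothelial surface genes (5 higher and 1 lower of 14 tested) and other pericyte genes (5 higher and 1 lower of 12) held both. Each of these counts is to be read beside the same 14.7% and 4.77%. These counts were not made again with the offset.

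The 10 genes named from these lists, those with the largest change in size among genes without overlap and with a mean of at least 1 CPM, were all higher in the KO brains, and each had its highest level in Bahd1-KO replicate 2. Id3, a target of BMP signalling downstream of endoglin, had 1.76, 1.04 and 1.16 CPM in the WT and 3.49, 15.2 and 5.61 CPM in the KO libraries (log2 fold change 2.62, SE 0.53, edgeR adjusted p = 0.0634, and 1.63 with the offset). Pdgfb, the endothelial ligand of Pdgfrb, had 5.26, 3.94 and 3.26 against 8.92, 20.1 and 12.8 CPM (log2 fold change 1.75, SE 0.33, edgeR adjusted p = 0.0634, and 0.40 with the offset). Lama5 and Lamb2, laminin chains of the basement membrane, had log2 fold changes of 2.33 and 2.11. Smtn, a protein of contractile smooth muscle, was at 2.31, the Notch ligand Jag2 at 2.14, Lsr of tricellular junctions at 1.96 and the endothelial nitric oxide synthase Nos3 at 1.95. Lrp1, a receptor that clears ligands across the barrier, and Lrp5, a co-receptor of Wnt and Norrin, were both at 1.82. With the offset these 8 genes were between 0.39 (Jag2) and 1.1 (Lrp5).

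The number of members at an adjusted p under 0.1 depended on the libraries in the fit. Without Bahd1-KO replicate 2, 8 members were higher (Cldn5, Slc2a1, Tie1, Eng, Egfl7, Sox18, Vtn and Acta2), beside 8.94% of the genes tested in that fit. Beside the values already given, leaving out this library moved Ly6c1 to 0.27, Cdh5 to 0.21, Pecam1 to 0.19, Ramp2 to 0.34, Egfl7 to 0.88, Higd1b to 0.32, Ocln to -0.0334, Abcb1a to -0.13, Abcc9 to -0.0518 and Sox17 to 0.0561, each a move of over 1.5 times. Leaving out Bahd1-WT replicate 2 moved Cdh5 to 0.21, Pecam1 to 0.19, Emcn to -0.0705, Tek to -0.0336 and Ramp2 to 0.36. Leaving out Bahd1-KO replicate 3 moved Abcc9 to -0.60, Erg to 0.11 and Myh11 to 0.0507. Without Bahd1-WT replicate 1 Emcn was at -0.35, and without Bahd1-WT replicate 3 Cd34 was at -0.16. In the fit without Bahd1-KO replicate 1, Erg was at 0.39 and Myh11 at 0.36, and 18 members were under an adjusted p of 0.1. Of these, 17 were higher, beside 23.9% of the genes tested, and Rgs5 was lower (log2 fold change -0.58), beside 17.3%. Without Bahd1-KO replicate 3 or any of the WT replicates there were 0 members, and at most 5 genes of the whole table passed.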

How the data were processed

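RNA-seq counts of 3 Bahd1-WT and 3 Bahd1-KO adult brain hemispheres were analysed. The authors prepared polyadenylated RNA as stranded libraries, trimmed reads with Cutadapt 1.11, mapped them to GRCm38 (the sources used here name both STAR 2.5.0a and Tophat2) and counted them on exons with featureCounts 1.4.6-p3. The deposited values are raw counts per gene, without normalization, in 1 column per mouse, with technical sequencing replicates merged, and 0 columns belonged to other samples. The study calls the WT mice littermates of the KO mice, and the labels tie no sample to a litter. Its methods give featureCounts the forward-strand setting for a kit whose reads are normally of the reverse strand. Which setting made the table was not settled, but marker genes of brain cells were counted at high levels.

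The 23975 genes whose counts summed to 10 or more were tested with edgeR 4.0.16 in R 4.3.3 (TMM normalization, quasi-likelihood test, genotype as the only factor, Benjamini-Hochberg adjustment over all genes). CPM used TMM-normalized library sizes, and the SE was derived from the quasi-likelihood F statistic. The study made its calls with DESeq2. Here DESeq2 1.42.0 was an alternative, as were other normalizations and filters, leaving out each library, a replicate block and a GC and length offset (natural splines of log2 CPM with 5 and 3 degrees of freedom in each library, fitted to 13251 genes with a mean log2 CPM above 1). GC content and exon length were taken from GENCODE M21 (GRCm38) and were known for 23940 tested genes. Promoters came from RefSeq. The symbols Mrtfa and Mrtfb were matched to Mkl1 and Mkl2 of the table by position. The scripts were tested on simulated data.

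The members and gene lists were chosen with earlier results of these data known, so no list was tested and member and pathway counts are given beside those over all genes. All members were named, and of the pathway lists the 10 genes with the largest change among those with an adjusted p under 0.1, a mean of at least 1 CPM and no overlap. The floor covers counting error and nothing else, because sequenced reads share molecules of origin.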

Additional observations from a re-analysis of the deposited data

How the results depend on the processing

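The number of members called at an adjusted p under 0.05 and 2-fold was 0 in the edgeR fit used throughout, which is not the study's own fit. It was also 0 with DESeq2 size factors, upper-quartile factors, filterByExpr, the replicate block and the GC and length offset with or without the block. It was 7 with total counts only and 8 without a filter and with DESeq2 with or without the prior, and ranged from 0 to 10 when each library was left out. Over all genes the calls rose likewise, from 2 of 23975 in the edgeR fit used throughout to 2007 with total counts only. They were 2761 and 2522 with DESeq2, the tool of the study, without and with the prior. They were 2770 of 32795 without a filter and 3988 of 23690 without Bahd1-KO replicate 1, the fit with 10 members. The number of members at an adjusted p under 0.1 (11 in the edgeR fit used throughout) was 10 to 15 under the other normalizations, filters and tools. It was 0 to 18 when each library was left out. It was 3 with the offset, and 0 with the replicate block and with the offset and block together. Over all genes, the block left 9 genes under an adjusted p of 0.1, against 4670 without it. Deviations of same-numbered libraries from their group means correlated at -0.577, -0.61 and -0.137, and no library correlated best with its own number. With 3 libraries per group and trends across whole libraries, these correlations cannot decide whether same-numbered samples share a litter or batch. The labels give such samples only a number in common, so values with the block are given as an alternative alone. The cause of the loss under the block was not tested.

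The median of the mural genes (0.57) was 0.16 with the offset and 0.18 with offset and block, and that of the endothelial genes (0.45) moved by less than the spread between replicates (SD 0.28) under every alternative run, with 0.26 to 0.63 when each library was left out. Some values turned sign. With total counts Flt1 was at 0.0502 and Kdr at 0.0271, and with the block Kdr was at 0.0026. When each library was left out, Flt1 ranged from -0.13 to 0.0396, Kdr from -0.26 to 0.20 and Tek from -0.0336 to 0.34. With the offset, Ocln turned to 0.28, Emcn to 0.33, Cd34 to 0.12, Slco1a4 to 0.0545, Abcb1a to 0.043, Rgs5 to 0.0062, Bsg to -0.60, Ramp2 to -0.35, Sox17 to -0.18 and Myh11 to -0.27. With offset and replicate block, these were at 0.27 (Ocln), 0.32 (Emcn), 0.13 (Cd34), 0.0542 (Slco1a4), 0.025 (Abcb1a), 0.0068 (Rgs5), -0.61 (Bsg), -0.36 (Ramp2), -0.18 (Sox17) and -0.27 (Myh11), with Kdr at 0.016. The offset removes by construction what follows GC content and length in a library, and a change of expression that follows GC content cannot be told apart from it. All members lay above the floor of 3 counts in every library, and the effect of depth was not tested.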

Other observations

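Genes of vessel segments and of the vessel surroundings gave the following values, to be read beside the 14.7% higher and 4.77% lower of all genes tested at an adjusted p under 0.1. Of 8 arterial endothelial genes, Gkn3 and Alpl were higher in the KO brains at an adjusted p under 0.1. Alpl, an alkaline phosphatase of brain endothelium, had 5.71, 4.70 and 5.79 CPM in the WT and 6.34, 15.6 and 10.9 CPM in the KO libraries (log2 fold change 1.02, SE 0.32, edgeR adjusted p = 0.0780). Of 7 venous genes tested, Vwf and Ephb4 were higher, and Ephb4, a receptor of venous endothelium, had a log2 fold change of 0.93 (SE 0.31, edgeR adjusted p = 0.0907). The arterial transcript Efnb2, the ligand of Ephb4, had 55.8, 54.8 and 70.7 against 57.8, 40.6 and 50.7 CPM, a log2 fold change of -0.28 (SE 0.19). Vessel fibroblast markers (8 genes) summed to 502 to 638 CPM in the WT and 574 to 633 CPM in the KO libraries, and 0 of them passed in edgeR at an adjusted p under 0.1. Of 7 choroid plexus markers, Ttr alone was higher (log2 fold change 1.29, SE 0.33, edgeR adjusted p = 0.0634). Of 7 lung endothelial genes, Calcrl and Hpgd were lower, and Calcrl had 25.1, 14 and 14.1 against 10.6, 5.61 and 10.5 CPM. Of the red blood cell genes, Hbb-bs had 5.43, 6.54 and 8.92 against 7.98, 55.1 and 19.4 CPM, while Alas2 had 3.08, 3.27 and 3.08 against 2.53, 3.497 and 3.04 CPM.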
